A study of Mus musculus with 21 samples.

Results

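The genes described here are the corticosteroid receptors and their regulators: Nr3c1, Nr3c2, Fkbp4, Fkbp5, Hsd11b1, Ptges3 and Stip1, 7 of the 55487 genes in the count table, chosen by name from the known biology of the receptors and not by a measured value. The choice was made with earlier results of these data known. Each symbol matched 1 gene, and all 7 passed the filter on low counts that left 18146 genes. Poly-A RNA of the hippocampus was sequenced from wild type C57BL/6 males aged 10 weeks, with 1 library per mouse. In the maternal separation (MS) group, 9 mice, nests were taken from the dam for 4 h a day from postnatal day 10 to 17, and most nesting material was removed from the home cage. The 12 standard rearing (SR) mice were the controls. Whole nests were given a condition, so the mice of a nest share it. The labels name no nest, but the animal numbers fall into 7 runs of 3 consecutive numbers, each of 1 condition. These runs are called sets A, B and C in MS and sets K, L, M and N in SR, and a mouse is named by its set and its place in it (A1, K3). Sets A, B, K, L and M have lower animal numbers (range 1), and sets C and N have higher ones (range 2).

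Corticosterone, the main glucocorticoid of mice, acts in the hippocampus through a pair of nuclear receptors. The mineralocorticoid receptor has the higher affinity for it and is strongly expressed in hippocampal neurons, while the glucocorticoid receptor is filled mainly when the hormone rises. Both receptors are folded and held ready for hormone by the chaperone Hsp90 with a series of co-chaperones, and enzymes in the cell set how much active hormone reaches them.

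Depth was similar in the groups, with 17276810 to 24052716 counts per library in MS and 18368519 to 26450808 in SR for the 20 libraries used. The MS library A2 (30449055 counts) stood apart on the first principal component, at 27.1 against −12.2 to 11.9 for the others. Levels are given as CPM, counts scaled to a library total of 1000000. A2 held 0.692 CPM of Dsp, a marker of dentate gyrus granule cells, against 54.0 to 138 CPM in the others, and its 8 striatal markers summed to 2491 CPM against 172 to 923 CPM. A2 was therefore left out of the fits, and its values are given apart. In the 20 others all listed markers of dentate gyrus and CA1 neurons were detected, with sums of 268 to 534 and 311 to 545 CPM. Mice A1 and L2 had the lowest such sums and the highest sums of 6 neocortical markers, 368 and 355 CPM against 148 to 280 CPM in the rest. B1 and L2 had the highest striatal sums of the 20, 923 and 594 CPM. In bulk tissue, fewer cells of a type and less RNA per cell cannot be told apart.

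Levels compared between genes are CPM per kilobase of exon, averaged over the 20 mice. Stip1 was the most abundant of the 7 (75.9 ± 5.14, SD, n = 20), followed by Fkbp4 (42.5 ± 4.33) and Ptges3 (36.4 ± 2.18). The receptors came next, with Nr3c2 at 23.2 ± 4.42 and Nr3c1 at 11.0 ± 0.804. Fkbp5 (6.94 ± 0.692) and Hsd11b1 (6.05 ± 1.15) were lowest. The ranges over mice overlapped between the neighbours Fkbp4 and Ptges3 and between Fkbp5 and Hsd11b1, and between no other neighbours in this order. All further levels are CPM.

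**Figure D1:**
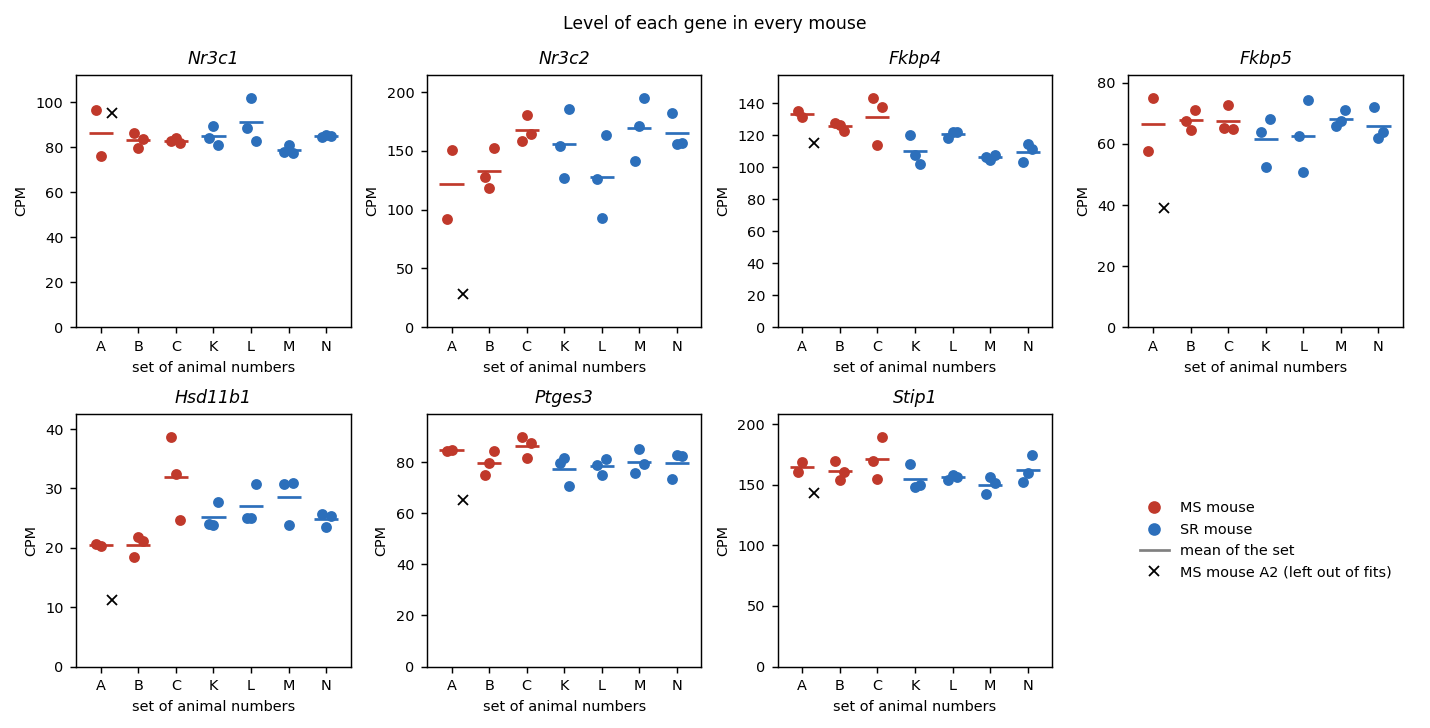
Each panel plots 1 gene, with the level in CPM on the vertical axis, the set of animal numbers on the horizontal axis, a point per mouse and a line at the mean of the set. Fkbp4 is above 122 CPM in 7 of 8 MS mice and below that in the 12 SR mice. Hsd11b1 is low in sets A and B and high in mice C1 and C2 of set C, and the left-out mouse A2 (cross) has 28.5 CPM of Nr3c2.

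The study asked which transcripts differ in the adult hippocampus after separation in early life, and here the receptors were compared first. Neither receptor passed the test. Of the 7 genes, edgeR's quasi-likelihood test called 0 at an adjusted p under 0.05, where 0.011% of all genes tested were called (2 genes, both higher in MS). At an unadjusted p under 0.05 it gave 3 of the 7, Fkbp4, Ptges3 and Stip1, all higher in MS, beside 11.5% of all genes tested. DESeq2's Wald test called 1 of the 7, Fkbp4, beside 0.966% of the genes for which it gave an adjusted p, or 0.634% counting the higher ones alone.

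Nr3c1, the glucocorticoid receptor (ENSMUSG00000024431, chromosome 18), had a lowest, median and highest level of 76.0, 83.2 and 96.5 CPM in MS and of 77.3, 84.2 and 102 CPM in SR. The groups overlapped almost fully, and the highest mouse of each was the one with the most neocortical marker RNA, A1 and L2. The log2 fold change of MS against SR was −0.02 (SE 0.047, 95% interval −0.11 to 0.07, edgeR adjusted p = 0.925), and it was 0.0096 without mouse L2.

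Nr3c2, the mineralocorticoid receptor (ENSMUSG00000031618, chromosome 8, 76899442 to 77245012, plus strand, GRCm38), lay at 92.4, 152 and 181 CPM in MS and at 93.1, 156 and 195 CPM in SR. It varied more between mice than the other receptor, with a coefficient of variation of 19.8% in MS and 18.8% in SR against 7.12% and 7.70% for Nr3c1. The log2 fold change was −0.11 (SE 0.130, interval −0.36 to 0.15, edgeR adjusted p = 0.801). Its lowest values were again in A1 and L2, and A2 held only 28.5 CPM. Part of the Nr3c2 exons, 247 bases, is shared with Gm10649 on the other strand, which averaged 57.7 counts against 3150 for Nr3c2.

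The balance of the receptors was also read within each mouse, as the ratio of Nr3c2 to Nr3c1 counts. The ratio had a lowest, median and highest value of 0.958, 1.87 and 2.15 in MS and of 0.912, 1.84 and 2.53 in SR. Counts of Nr3c2 exceeded those of Nr3c1 in all of these mice but A1 and L2. The mean log2 ratio was 0.75 ± 0.38 (SD, n = 8) in MS and 0.84 ± 0.39 (n = 12) in SR, a difference of −0.09 (exact permutation test over mice, two-sided p = 0.598). Without A1 the difference was 0.022 (exact permutation p = 0.939).

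**Figure D2:**
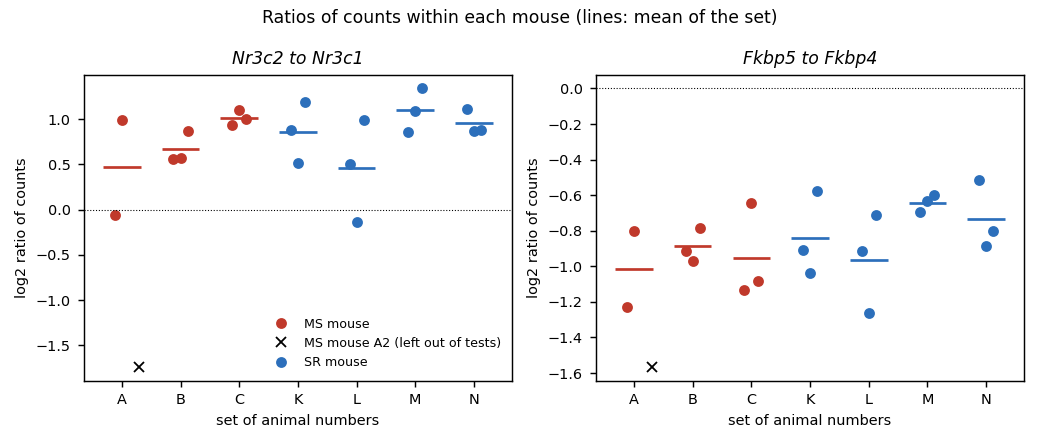
The vertical axes give the log2 ratio of counts of Nr3c2 to Nr3c1 (left) and of Fkbp5 to Fkbp4 (right) within a mouse, by set of animal numbers, with a point per mouse and a line at the mean of the set. Values of MS and SR overlap in both panels, and A1 (MS) and L2 (SR) lie below 0 on the left.

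The co-chaperones were compared next, which adjust how receptor and Hsp90 work together. Fkbp4 encodes FKBP52, an immunophilin that promotes hormone binding and movement of the receptor to the nucleus. Fkbp5 encodes FKBP51, which lowers the affinity of the glucocorticoid receptor for hormone and is itself induced by that receptor. Ptges3 encodes p23, which stabilises the mature complex of Hsp90 and receptor, and Stip1 encodes Hop, the adaptor that passes the receptor from Hsp70 to Hsp90. Of these, Fkbp4 had the largest log2 fold change.

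Fkbp4 (ENSMUSG00000030357, chromosome 6, 128429735 to 128438677, minus strand) had 135.0 and 131 CPM in the mice of set A, 127, 126 and 122 CPM in set B, and 143, 114 and 137 CPM in set C. The SR mice had a lowest, median and highest level of 102, 109.5 and 122 CPM. Thus 7 of 8 MS mice were above every SR mouse, and C2 was the exception. The lowest of these 7, B3 at 122.4 CPM, was close to the highest SR mouse, L3 at 121.9 CPM. The share of all genes with 7 of 8 MS mice above every SR mouse was not counted. The means were 130 ± 9.32 CPM (SD, n = 8) in MS and 112 ± 7.44 CPM (n = 12) in SR, with a log2 fold change of 0.22 (SE 0.044, interval 0.13 to 0.30).

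In edgeR the adjusted p of Fkbp4 was 0.111, the gene ranking 7 among 18146 by p, and in DESeq2 it was 0.00778. The call depended on single mice: edgeR gave an adjusted p of 0.0307 without C2, 0.0450 without C3 and 0.0212 without set C. Calls over all genes rose in the same fits, from 2 genes to 109 (0.597%), 109 (0.596%) and 340 (1.83%). The log2 fold change stayed between 0.19 and 0.27 over 39 alternative settings, with adjusted p from 0.00778 to 0.937. Each MS set mean (125 to 133 CPM) was above each SR set mean (106 to 121 CPM). The set means of the 2 conditions did not overlap in 9.94% of all genes. An exact permutation test over mice gave p = 0.0004. One over the 35 ways to divide the 7 sets gave p = 0.0571, the smallest value that this two-sided test can give. It could therefore not fall under 0.05. In mouse A2 Fkbp4 stood at 115 CPM.

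Stip1 (ENSMUSG00000024966, chromosome 19, 7020702 to 7039967, minus strand) lay at 154, 165 and 189.6 CPM (lowest, median, highest) in MS and at 142, 155 and 175 CPM in SR. The groups overlapped, with C3 alone above every SR mouse. The log2 fold change was 0.09 (SE 0.040, interval 0.01 to 0.17, edgeR adjusted p = 0.382). A stretch of up to 171 bases of Stip1 matches transcripts of Cfap20 at over 99% identity, so a part of its reads may have been assigned uncertainly.

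Ptges3 (ENSMUSG00000071072, chromosome 10, 128058954 to 128077272, plus strand) lay at 75.1, 84.3 and 89.9 CPM in MS and at 70.8, 79.4 and 85.0 CPM in SR. C1 and C3 were above every SR mouse and the other MS mice were not. The log2 fold change was 0.08 (SE 0.038, interval 0.01 to 0.16, edgeR adjusted p = 0.408). The processed pseudogene Ptges3-ps is identical over 480 bases and averaged 157 counts against 1763 for Ptges3, so reads of the pair may have been split.

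Fkbp5 (ENSMUSG00000024222, chromosome 17, 28399094 to 28517527, minus strand) lay at 57.7, 66.4 and 75.2 CPM in MS and at 50.8, 64.9 and 74.5 CPM in SR. The groups overlapped, and the lowest mouse of each was A1 or L2. Its log2 fold change was 0.06 (SE 0.063, interval −0.06 to 0.19, edgeR adjusted p = 0.752). A2 held 39.0 CPM, below the other 20 mice, and with it the fold change was −0.0087.

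The ratio of Fkbp5 to Fkbp4 sets the co-chaperone that opposes hormone binding against the one that favours it. It was lowest, median and highest at 0.427, 0.521 and 0.640 in MS and at 0.418, 0.593 and 0.699 in SR, so the groups overlapped. The mean log2 ratio was −0.95 ± 0.20 (SD, n = 8) in MS and −0.79 ± 0.22 (n = 12) in SR, a difference of −0.15 (exact permutation test over mice, two-sided p = 0.134). Without L2 the difference was −0.19 (exact permutation p = 0.0369), and without A1, the lowest MS mouse, it was −0.11 (exact permutation p = 0.267). It was −0.15 without A1, B1 and L2 (exact permutation p = 0.112) and −0.16 over the means of the sets (exact permutation p = 0.171).

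**Figure D3:**
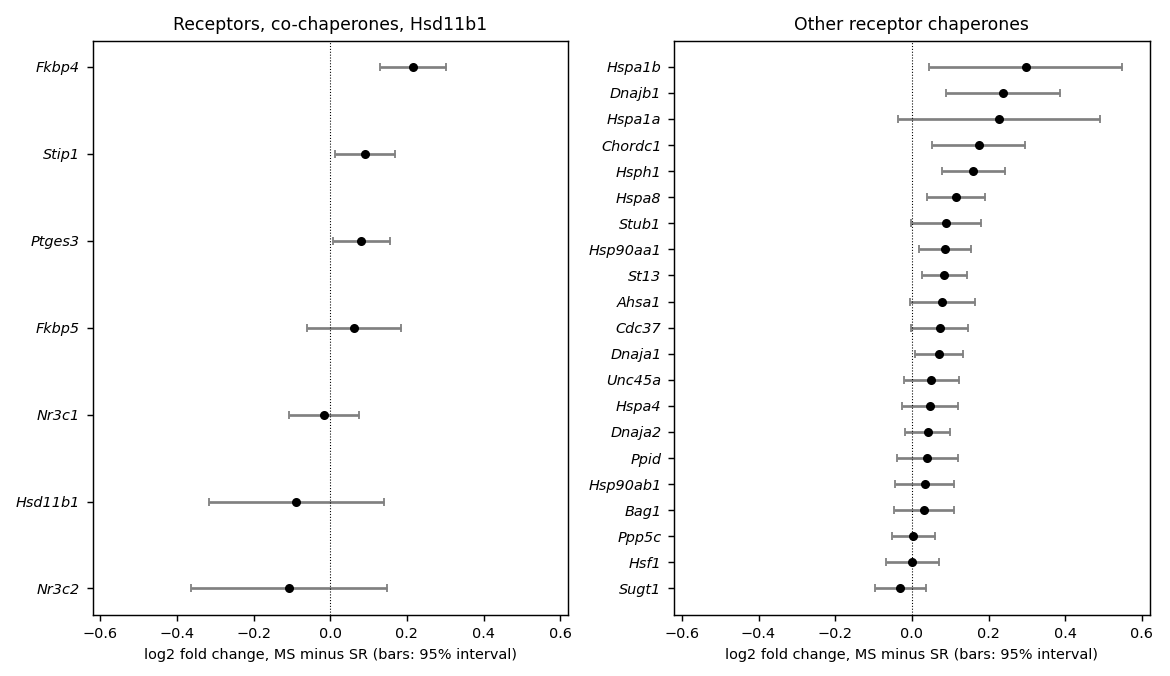
Points give the log2 fold change of MS against SR in edgeR on the horizontal axis, with bars of the 95% interval, for the 7 genes (left) and for 21 other chaperones of the receptors (right). Fkbp4 lies at 0.22 and 20 of the 21 other chaperones lie above 0.

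The promoters of the 3 co-chaperones at an unadjusted p under 0.05 are shown because Stip1, Fkbp4 and Ptges3 serve the same Hsp90 complex, whose chaperones are known targets of heat shock factor. Each run is the 250 bases before the RefSeq transcription start (GRCm38.p6), 5′ to 3′ along the gene, at chr6:128438657-128438906 (minus strand) for Fkbp4, chr19:7040027-7040276 (minus strand) for Stip1 and chr10:128058732-128058981 (plus strand) for Ptges3. Capitals mark a heat shock pair (GAANNTTC or TTCNNGAA) and the CCAAT box (CCAAT or ATTGG), searched on both strands.
Fkbp4: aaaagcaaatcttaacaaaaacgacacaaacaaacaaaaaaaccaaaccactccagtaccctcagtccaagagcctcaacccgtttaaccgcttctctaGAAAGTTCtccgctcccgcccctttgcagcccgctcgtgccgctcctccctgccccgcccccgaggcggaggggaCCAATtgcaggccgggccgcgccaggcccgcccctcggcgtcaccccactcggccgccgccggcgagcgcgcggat
Stip1: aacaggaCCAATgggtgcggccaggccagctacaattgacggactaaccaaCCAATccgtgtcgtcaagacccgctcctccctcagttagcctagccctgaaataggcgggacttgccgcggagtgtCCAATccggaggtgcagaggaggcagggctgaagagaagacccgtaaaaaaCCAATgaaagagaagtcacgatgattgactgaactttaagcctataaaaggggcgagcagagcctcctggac
Ptges3: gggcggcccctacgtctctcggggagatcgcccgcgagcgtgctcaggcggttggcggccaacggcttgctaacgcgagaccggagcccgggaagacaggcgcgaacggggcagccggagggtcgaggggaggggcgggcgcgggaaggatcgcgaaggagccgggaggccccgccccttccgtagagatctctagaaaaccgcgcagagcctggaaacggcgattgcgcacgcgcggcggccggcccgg
Fkbp4 held 1 heat shock pair, GAAAGTTC, from base −151 to −144 counted from the start, while Stip1 and Ptges3 held none in this window. Of the other genes with a RefSeq promoter, Nr3c2 held a pair, GAACTTTC, and Fkbp5 and Hsd11b1 held none. Such a pair occurs in 12.8% of 32851 promoters. The CCAAT box, present in 33.8% of promoters, occurred 4 times in Stip1, once in Fkbp4 and not in Ptges3. A heat shock element of 3 units (0.466% of promoters) was found in none of the 6 promoters, nor was a palindromic glucocorticoid response element (0.387%). These matches are descriptions of the letters in the window.

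The enzyme that supplies active hormone was compared last. Hsd11b1 encodes the reductase that regenerates corticosterone from its inert keto form. Hsd11b1 (ENSMUSG00000016194, chromosome 1, 193221634 to 193264075, minus strand, lying within Lamb3 on the other strand with no shared exon base) did not pass the test over all mice, at 24.8 ± 7.10 CPM (SD, n = 8) in MS and 26.4 ± 2.90 CPM (n = 12) in SR. The log2 fold change was −0.09 (SE 0.116, interval −0.32 to 0.14, edgeR adjusted p = 0.822). The means of the MS sets, however, lay on opposite sides of the SR set means.

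In set A Hsd11b1 stood at 20.6 and 20.3 CPM, in set B at 18.4, 21.8 and 21.1 CPM, and in set C at 38.7, 32.5 and 24.7 CPM. The SR mice ranged from 23.5 to 31.0 CPM with a median of 25.2 CPM. All 5 mice of sets A and B were below every SR mouse, and C1 and C2 were above every one. The share of all genes with such a split was not counted. Between the MS sets, 11.4% of all genes were at an unadjusted edgeR p under 0.05. Its coefficient of variation was 28.7% in MS and 11.0% in SR.

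Within range 1 of the animal numbers (5 MS and 9 SR mice) the log2 fold change of Hsd11b1 was −0.39 (SE 0.078, edgeR adjusted p = 0.0239), and within range 2 (3 and 3) it was 0.37 (SE 0.144, edgeR adjusted p = 0.937). The difference between these effects was 0.76 (SE 0.158) with an unadjusted p of 8.2e-05 in edgeR, and an adjusted p of 0.304. The edgeR interaction test called 0 of the 7 genes and 0% of the 18146 genes, 1573 of which (8.67%) were at an unadjusted p under 0.05. Hsd11b1 alone of the 7 was among these. Without set C the fold change was −0.37 (edgeR adjusted p = 0.0136) and without set B it was 0.052. Range 2 holds 1 set of each condition, so that set and condition cannot be told apart there.

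RNA of the choroid plexus moved with the MS sets. The summed level of 8 choroid plexus markers, all detected and 8 of 8 higher in MS with 0 called by edgeR and 0 at an unadjusted p under 0.05, was 3147 to 4238 CPM in the 5 mice of sets A and B. It was 936, 56.0 and 1392 CPM in set C, and 31.6 to 4547 CPM in SR. The SR mice with the highest sums, K3 (4547 CPM) and N2 (4097 CPM), had 27.7 and 23.5 CPM of Hsd11b1, the latter the lowest of the 12 SR mice. The part of choroid plexus RNA in the Hsd11b1 result was not tested beyond the following fit. With a choroid plexus score as a term, the log2 fold change of Hsd11b1 over all mice was −0.013 and the difference between the ranges 0.71 (unadjusted p = 0.000604, edgeR adjusted p = 0.657), while the fold change of Fkbp4 was 0.22 (edgeR adjusted p = 0.303).

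**Figure D4:**
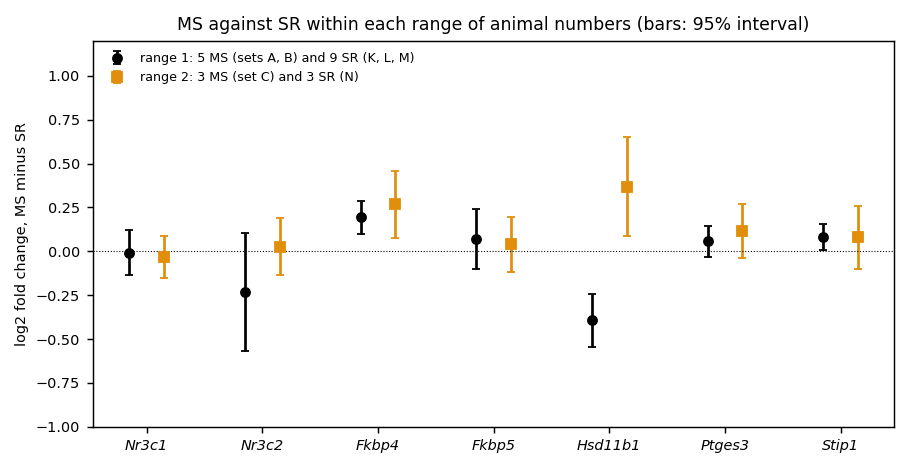
The vertical axis gives the log2 fold change of MS against SR in edgeR, with bars of the 95% interval, for each gene fitted within range 1 (circles, 5 MS and 9 SR mice) and within range 2 (squares, 3 and 3). Hsd11b1 lies at −0.39 in range 1 and at 0.37 in range 2, and Fkbp4 lies above 0 in both.

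The other genes kept closer values in the ranges. Fkbp4 had a log2 fold change of 0.19 in range 1 (edgeR adjusted p = 0.0557) and of 0.27 in range 2 (edgeR adjusted p = 0.937). Nr3c2 stood at −0.23 and 0.026, with a difference of 0.26 (SE 0.265, edgeR adjusted p = 0.826). The remaining differences between the ranges lay between −0.03 and 0.07.

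Sets of 1 condition were also compared with each other. Between the SR sets edgeR called 0 of the 7 genes, beside 0.0165% of all genes, and none of the 7 was at an unadjusted p under 0.05, where 5.8% of all genes were. The SR set means of Nr3c2 nonetheless spanned 128 CPM in set L to 169.6 CPM in set M, and those of Fkbp4 106 CPM in set M to 121 CPM in set L. Between the MS sets edgeR called 0 of the 7 genes, beside 0% of all genes (2070, or 11.4%, at an unadjusted p under 0.05). Hsd11b1 was the only one of the 7 at an unadjusted p under 0.05 there, with an adjusted p of 0.142.

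How the 7 genes varied together from mouse to mouse was measured over the 20 mice, after the mean of each condition was taken off, in all 21 pairs. By Pearson's r, 3 pairs passed a Benjamini-Hochberg adjusted permutation p of 0.05, and all joined the receptors and Fkbp5. Nr3c2 and Fkbp5 varied together (r = 0.81, adjusted permutation p = 0.00126, and Spearman's rho = 0.69, adjusted permutation p = 0.0283, raw permutation p 6e-05 and 0.00135). Nr3c1 ran against Fkbp5 (r = −0.77, adjusted permutation p = 0.00147, and rho = −0.55, adjusted permutation p = 0.0766, raw 0.00014 and 0.0146). Nr3c1 also ran against Nr3c2 (r = −0.76, adjusted permutation p = 0.00434, and rho = −0.54, adjusted permutation p = 0.0773, raw 0.00062 and 0.0184).

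A1 and L2, the mice farthest from the median of each receptor, carried much of these relations. Without them r was 0.64 for Nr3c2 and Fkbp5, −0.55 for Nr3c1 and Fkbp5 and −0.40 for the receptors. Without A1, B1 and L2, the 3 mice with the most neocortical or striatal marker RNA, 0 of 21 pairs passed in 17 mice, with r = 0.65 for Nr3c2 and Fkbp5 (adjusted permutation p = 0.0993). Within range 1 the 3 pairs passed (14 mice), and within range 2, with 6 mice, 0 did. Range 2 has 3 mice per condition, too few permutations for a single pair to pass after adjustment. The 0 there therefore decides nothing about these pairs. With the mean of each set taken off, r of Nr3c2 and Fkbp5 was 0.95 (adjusted permutation p = 0.00105), while the pairs of Nr3c1 with Fkbp5 (r = −0.81) and with Nr3c2 (r = −0.79) no longer passed (adjusted permutation p = 0.236 for both). The part of the marker RNA in these correlations was not tested further.

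**Figure D5:**
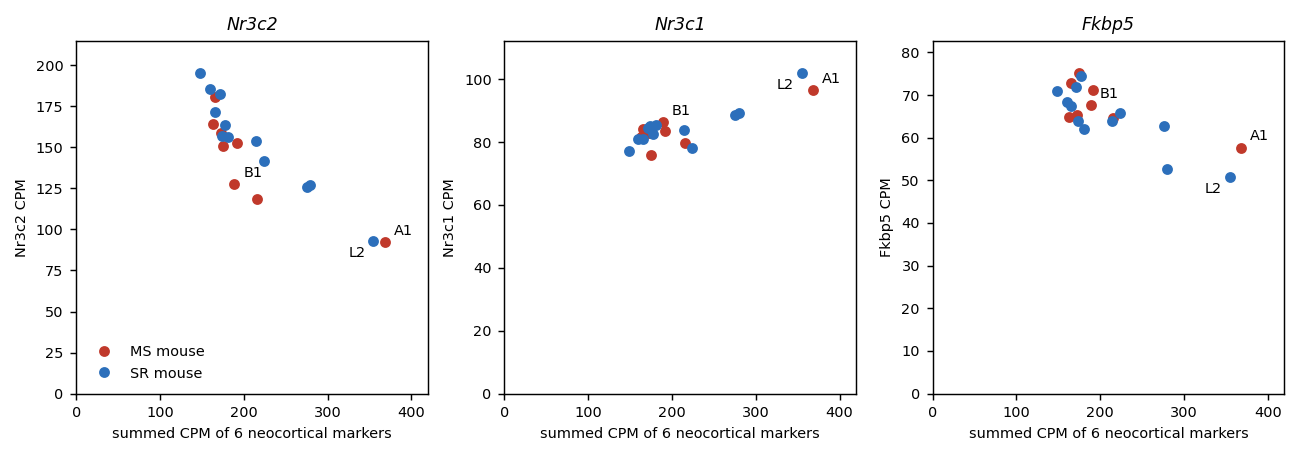
Each panel plots the level of 1 gene in CPM against the summed CPM of 6 neocortical markers, with a point per mouse (20 mice, MS red, SR blue). A1 and L2, with sums of 368 and 355 CPM, have the lowest Nr3c2 (92.4 and 93.1 CPM) and the highest Nr3c1 (96.5 and 102 CPM).

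The co-chaperones formed no called pair. Fkbp4 and Stip1 came nearest (r = 0.54, adjusted permutation p = 0.0906, and rho = 0.62, adjusted permutation p = 0.0530, raw 0.0172 and 0.005), and r was 0.50 without C1 and C2. Pairs of Hsd11b1 with the other 6 genes had r from −0.25 to 0.44.

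For each of the 7 genes, the genes of most similar pattern were taken as the 2 with the highest r among the 18145 others, over 20 mice with condition means removed. Nr3c2 was most like Gria1, an AMPA receptor subunit (r = 0.99), and Plppr4, a membrane protein of neurons (r = 0.99). Nr3c1 was most like Fbh1, a DNA helicase (0.88), and Cbln2, a synaptic organiser (0.88). Fkbp5 was most like Cacng8, an auxiliary subunit of AMPA receptors (0.89), and Prdm8 (0.88). Hsd11b1 was most like Psd (0.92) and Napa, which takes part in vesicle fusion (0.88). Stip1 was most like St13 (0.83) and Hspa8 (0.80), both of the Hsp70 step of receptor folding. Ptges3 was most like Vbp1, a prefoldin subunit (0.82), and Gm14494 (0.76), and Fkbp4 was most like Mpp6 (0.88) and Dnajb2, an Hsp40 protein (0.84). These values are descriptions, and the genes of a mouse share its library, depth and tissue makeup.

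The wider machinery was read in 5 lists of genes, in none of which edgeR called a gene. Over all genes tested the median log2 fold change was 0.00084, and 50.3% were higher in MS. Of 21 other receptor chaperones, all tested, 20 were higher in MS, with a median log2 fold change of 0.07. The number higher was 16 without set C (median 0.053), 17 without C1 (0.050) and 19 without set B (0.091). In the fit over all 20 mice, 8 had an unadjusted edgeR p under 0.05, all higher, beside the 11.5% of all genes. Hsp90aa1, the inducible Hsp90, stood at 1072 ± 55.1 CPM (SD, n = 8) in MS and 1011 ± 37.1 CPM (n = 12) in SR (log2 fold change 0.09, SE 0.035, edgeR adjusted p = 0.342). Hspa8, the constitutive Hsp70, stood at 1748 ± 116 CPM and 1614 ± 59.8 CPM (0.11, SE 0.038, edgeR adjusted p = 0.246). Hsp90ab1, the constitutive Hsp90, was closer between groups, at 0.03 (SE 0.039, edgeR adjusted p = 0.788), as was Hsf1, the heat shock factor, at 0.0016 (SE 0.035, edgeR adjusted p = 0.994).

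Within that list, Dnajb1, the Hsp40 that works with Hsp70, stood at 62.3 ± 7.67 CPM in MS and 52.8 ± 6.53 CPM in SR (log2 fold change 0.24, SE 0.075, edgeR adjusted p = 0.226). It was called without set C, in a fit that called 1.83% of all genes tested. Hsph1, a nucleotide exchange factor of Hsp70, stood at 336 ± 23.7 CPM and 301 ± 17.3 CPM (0.16, SE 0.042, edgeR adjusted p = 0.148), and DESeq2 called it as the only gene of the list. The other chaperones at an unadjusted p under 0.05 were Hspa1b, Dnaja1, St13 and Chordc1, with log2 fold changes from 0.07 to 0.30.

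Of 14 receptor coregulators and import factors, all tested, 13 were lower in MS, with a median log2 fold change of −0.07, and 3 had an unadjusted p under 0.05, all lower, beside 11.5% of all genes. Ncor1, a corepressor, stood at 284 ± 17.5 CPM in MS and 305 ± 8.65 CPM in SR (log2 fold change −0.10, SE 0.033, edgeR adjusted p = 0.226). EdgeR called Ncor1 without C2 and without set C, in fits that called 0.597% and 1.83% of all genes tested. Ncoa1, the steroid receptor coactivator, stood at −0.08 (SE 0.052, edgeR adjusted p = 0.549). Crebbp and Ep300, the acetyltransferases recruited by receptors, stood at −0.12 and −0.11.

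Of 8 genes of corticosteroid metabolism and access, 6 were tested and 1 was higher in MS, with a median of −0.06 (−0.030 without L2) and none at an unadjusted p under 0.05. Hsd11b2, which inactivates corticosterone, was at or near 0 in every mouse, at most 0.396 CPM, and was not tested. H6pd, which supplies the cofactor of the Hsd11b1 enzyme, stood at 8.76 ± 1.33 CPM in MS and 9.59 ± 0.925 CPM in SR (log2 fold change −0.13, SE 0.082, edgeR adjusted p = 0.554). Abcb1a, an export transporter of the blood-brain barrier, stood at −0.05 (SE 0.064, edgeR adjusted p = 0.832). Of 4 other steroid receptors 3 were tested, with none at an unadjusted p under 0.05. Esr1, an oestrogen receptor, stood at 1.64 ± 0.329 CPM (SD, n = 8) in MS and 1.80 ± 0.495 CPM (n = 12) in SR.

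The last list held 22 genes known to be induced by glucocorticoids, all tested. Of these 17 were higher in MS, with a median log2 fold change of 0.09, which was 0.051 without A3. At an unadjusted p under 0.05 were 2, Mt1 (0.28) and Plin4 (0.43), both higher, a share below the 11.5% of all genes. Sgk1, a kinase, stood at 84.3 ± 21.7 CPM in MS and 76.9 ± 19.8 CPM in SR (0.13, SE 0.167, edgeR adjusted p = 0.814). Tsc22d3, the leucine zipper protein GILZ, stood at 0.06 (SE 0.085, edgeR adjusted p = 0.827), and Per1, a clock gene, at −0.05 (SE 0.104, edgeR adjusted p = 0.890). Mt1 was called by edgeR without C3, and Mt1 and Plin4 without set C, in fits that called 0.596% and 1.83% of all genes tested.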

How the data were processed

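The authors aligned paired-end reads of a directional poly-A library to GRCm38.102 with STAR 2.7.3a and counted them per Ensembl gene with featureCounts, per the study's methods and the labels, and deposited 1 table of raw counts without normalization or filtering. The strand setting of the counting is not given in the sources used here. Symbols, positions and exons are those of GENCODE M21, promoters those of RefSeq.

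Counts were scaled by TMM and filtered with filterByExpr (minimum count 10), and MS was set against SR in edgeR 4.0.16 (robust quasi-likelihood test, R 4.3.3) over 8 MS and 12 SR mice, with Benjamini-Hochberg adjustment over 18146 genes and a threshold of 0.05. The study left out 1 library by principal component analysis without naming it, and A2 was left out here on its own values. The study reports 9 MS and 12 SR mice, the same numbers as the libraries available here. Whether its outlier is among them is therefore not known, and the study may have kept A2. The SE is the log2 fold change over the square root of edgeR's F, 95% intervals use it with the normal quantile, and CPM is relative to the TMM-scaled total. Log2 CPM used a prior count of 2. Differences between sets and the interaction of condition and number range were tested in edgeR. Ratios were tested by exact permutation of mice, and correlations by 100000 permutations within condition. The alternative settings of the correlations used fewer permutations, made within sets where set means were taken off. DESeq2 1.42.0, limma 3.58.1, other filters and scalings, set sums, a choroid plexus score, and each mouse and set left out were alternatives. Fits restricted to a range, the fits without A1, B1 and L2 and the interaction with the choroid plexus score were chosen after seeing the data. The edgeR comparison of MS with SR was tested on simulated counts, and the other steps were not. No pair of libraries of a condition agreed within sampling noise (smallest chi-square per degree of freedom 3.58). Mice of a nest are not independent and nests are not labelled, so p-values over mice may be too small.

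The 7 genes and all lists were chosen with earlier results of these data known. Named are the 7 genes, 15 listed pathway genes chosen for their roles (1 of which is not reported here), listed genes called by edgeR or DESeq2, the 2 genes most like each of the 7, and listed genes at an unadjusted p under 0.05, the last chosen after their values were seen.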

Additional observations from a re-analysis of the deposited data

Results flagged for a closer look

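In 9 groups of MS values tested for a mouse far from the others (the 7 genes and both ratios), 2 had one, where chance gives about 1 in 20 groups. The highest MS value of Stip1, 189.6 CPM in C3, stood farther from the other 7 mice than Dixon's 95% critical value allows. The lowest MS log2 ratio of Nr3c2 to Nr3c1, −0.062 in A1, did so too. SR values were not tested in this way, and the log2 ratio of SR mouse L2 was lower still, at −0.132.

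The effect of separation on Hsd11b1 differed between the ranges of animal numbers by 0.76 on the log2 scale before adjustment over all genes (edgeR interaction test, unadjusted p = 8.2e-05), and not after it (adjusted p = 0.304). In range 1, 5 of 5 MS mice (sets A and B) lay below every SR mouse. In range 2, 2 of 3 MS mice (set C) lay above every SR mouse (set N). The share of all genes with such a split was not counted, and the labels match no MS set to an SR set.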

How the results depend on the processing

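Over the alternatives, Fkbp4, Ptges3 and Stip1 kept their direction in all 39 settings, Fkbp5 in 38. Fkbp4 also passed the threshold with DESeq2 (0.22) and without set C (0.20). Hsd11b1 passed it without set C (−0.37) and in range 1 alone (−0.39), and turned without set B (0.052), in range 2 alone (0.37) and without A1, B1 and L2 (0.0022). Nr3c1 turned with all 21 libraries (0.0042), without set L (0.018) and without L2 (0.0096), Nr3c2 in range 2 alone (0.026) and Fkbp5 with all 21 libraries (−0.0087). The log2 ratio of Nr3c2 to Nr3c1 turned without set A (0.0012), without A1 (0.022) and in range 2 (0.060), and that of Fkbp5 to Fkbp4 passed without set L (−0.21). The causes were not tested.

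With each mouse left out in turn, log2 fold changes spanned −0.053 to 0.0096 (Nr3c1), −0.16 to −0.04 (Nr3c2), 0.19 to 0.24 (Fkbp4), 0.03 to 0.09 (Fkbp5), −0.21 to −0.04 (Hsd11b1), 0.06 to 0.10 (Ptges3) and 0.06 to 0.11 (Stip1), and the differences of log2 ratios −0.18 to 0.022 (Nr3c2 to Nr3c1) and −0.19 to −0.11 (Fkbp5 to Fkbp4). Of the 7 genes 0 to 1 were called, and 0 to 1 of the coregulators and of the glucocorticoid-induced genes, 0 in the other lists. These calls came without C2 or without C3, in fits that called 0.597% and 0.596% of all genes tested.

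Of the 7 genes, 1 was called with DESeq2, 2 without set C and 1 in range 1 alone, in fits that called 0.966%, 1.83% and 1.25% of all genes tested. Among chaperones 1 was called with DESeq2 and 1 without set C. Among coregulators 1, and among glucocorticoid-induced genes 2, were called without set C, and 1 of each in range 1 alone. The median log2 fold change of the glucocorticoid-induced genes was 0.042 without set N, 0.046 without set A and 0.16 without set C. Without a filter on low counts edgeR called 1 of the 7 genes between SR sets (Nr3c2), among 1059 genes or 2.71% of those tested. Between MS sets it then called 2 (Nr3c2 and Hsd11b1), among 1460 genes or 3.74%. Calls over all genes thus rose in the same fits. Pairs passing numbered 3 as reported, 7 with all 21 libraries, 1 with set means removed, and 0 in MS alone, in range 2 alone and without A1, B1 and L2. In range 2 alone the permutations were too few for a single pair to pass. No paired analysis was possible because whole nests were given a condition and the labels link no MS mouse to an SR mouse. Depth did not limit the 7 genes, with 326 counts or more in every library, but range 2 holds 3 mice a group and the sets are few.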
